A study of Mus musculus with 5 samples.

Results

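The pentose phosphate pathway branches from glycolysis at glucose 6-phosphate. Its oxidative branch makes NADPH, the reducing agent for lipid synthesis and for glutathione, and its non-oxidative branch exchanges carbon between sugar phosphates and yields ribose 5-phosphate for nucleotides. Tumour cells use both products for growth, erythrocytes depend on the NADPH against oxidants, and neutrophils burn NADPH in their oxidative burst.

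The transcripts of 8 genes were read, chosen by name from the 54113 named entries of the count table: the oxidative enzymes G6pdx, Pgls and Pgd, the non-oxidative enzymes Rpe, Rpia, Tkt and Taldo1, and the phosphatase Tigar, which lowers fructose-2,6-bisphosphate and steers sugar phosphate towards the pathway. RNA came from colorectal cancer (CRC) tumours that MC-38 cells, a mouse colon adenocarcinoma line, formed in C57BL/6 mice, 3 kept at 30 °C and 2 at 4 °C, each for 2 weeks. All tumours derive from this 1 line, and the labels give no age or sex of the hosts. The question was whether the transcripts of this carbohydrate pathway differed between cold and thermoneutral housing. Levels below are in CPM, the counts of a gene relative to the total of its library, scaled with the TMM method of edgeR so that a few abundant genes do not depress the others.

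Named genes took 16191708 to 20320525 counts per library, so that every member except Tigar had at least 672 counts in each tumour. In 30 °C replicate 2, 24.3% of the counts fell on 15 pancreatic acinar genes, against 0.244% or less elsewhere. Of 10 epithelial markers, Cdx1 was at 0 in every library, and their summed level lay between 17.5 and 166 CPM, while 10 B cell markers summed to between 1324 and 3968 CPM. All 4 markers of splenic mesenchyme were detected, with a sum between 41.8 and 79.3 CPM, within the range of the epithelial sum. The epithelial markers were thus scarce beside the B cell markers in tissue labelled as tumour, but not beside those of splenic mesenchyme. RNA from a whole tissue mixes cell types, so that a change in the number of cells of a type and a change of RNA per cell cannot be told apart for any gene below.

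All 8 genes carry a GC box, the letters GGGCGG on either strand, in the 250 bases before their RefSeq start (GRCm38.p6), against 32.7% of all 32851 such windows and 54.3% of the windows of genes tested here. The antioxidant response element that Nrf2 binds, searched as TGACNNNGC on both strands, was found in 1 of the 8 windows, that of G6pdx. It was in 10.2% of all windows and in 11.8% of the windows of genes tested, so that 1 of 8 is near background. The E-box CACGTG was in none of the 8, against 6.02% of all windows. The stretches around a GC box of each member and around the 1 antioxidant response element are given as sequence. Each holds 30 bases, read 5′ to 3′ in the direction of the gene, with the match in capitals (CCGCCC and GCTCAGTCA are matches on the other strand). They are described only as letters, and where a window held several GC boxes the one nearest the start is given. The RefSeq start of G6pdx lies 314 bases inside the gene as GENCODE M21 draws it, so that its window falls in annotated exon there. The window of Tigar also lies wholly in annotated exon, and 129 bases of that of Tkt, 66 of Pgd, 57 of Rpia and 8 of Pgls do.

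G6pdx, GC box, chrX:74429013-74429042, minus strand: gggaaggccaaaGGGCGGggctggccaggg
G6pdx, antioxidant response element, chrX:74428918-74428947, minus strand: aggcgggtcaGCTCAGTCAaagcacacgcc
Pgls, GC box, chr8:71592000-71592029, plus strand: gccggggactgcCCGCCCactacccacctc
Pgd, GC box, chr4:149166781-149166810, minus strand: ggccccgggggtGGGCGGgtccgtttgccc
Rpe, GC box, chr1:66700801-66700830, plus strand: gagtgcgaggtgggaggGGGCGGagccagt
Rpia, GC box, chr6:70792176-70792205, minus strand: ggtttccggaggagttgggggtgGGGCGGc
Tkt, GC box, chr14:30549101-30549130, plus strand: gcgccccgccccacctccgccCCGCCCccc
Taldo1, GC box, chr7:141392099-141392128, plus strand: ctccaagtacatGGGCGGggctcgtcgtca
Tigar, GC box, chr6:127109641-127109670, minus strand: cgccactggcctGGGCGGggcttctccggt

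None of the 8 members passed an adjusted p of 0.05 between 4 °C and 30 °C, and neither did any of the 16133 genes tested (0% called by the quasi-likelihood test of edgeR). At an unadjusted p under 0.05 no member passed in either direction, where 2.58% of all genes were higher and 4.17% lower at 4 °C. The lowest adjusted p of a member was 0.74, that of Pgls. Of the members, 6 had a lower and 2 a higher estimate at 4 °C, with a median log2 fold change of −0.12 beside 0.0064 over all genes tested. The estimates ran from −0.82 for G6pdx to 0.51 for Pgls, which are neighbouring steps of the same branch. The groups did not overlap in 1 member, Pgls, which was higher at 4 °C, as were 12.2% of all genes. No member was lower without overlap, against 11.0% of all genes.

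**Figure D1:**
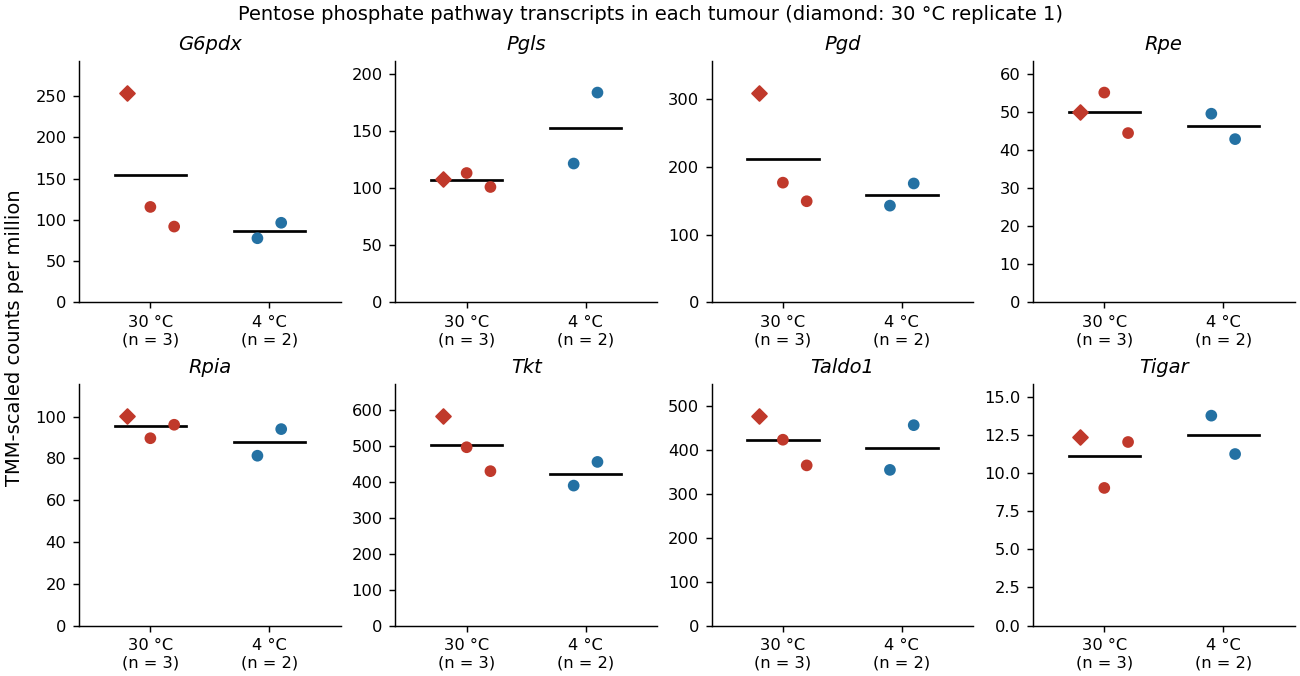
TMM-scaled CPM of the 8 pathway genes in each tumour (y axes start at 0), for 3 tumours at 30 °C (red) and 2 at 4 °C (blue), with the group mean as a bar. In 30 °C replicate 1 (diamond), G6pdx reached 254 and Pgd 309, above the other 4 tumours, while Pgls was highest in a tumour at 4 °C.

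G6pdx encodes glucose-6-phosphate dehydrogenase, the committed and rate-limiting step of the oxidative branch, and lies on chromosome X of GRCm38 from 74409483 to 74429194. Its level was 254, 116 and 91.9 CPM in the tumours at 30 °C (replicates 1 to 3) and 77.8 and 96.5 CPM in those at 4 °C (replicates 1 and 2). A single tumour at 30 °C thus stood far above the others, and the remaining tumours of both groups overlapped. The estimated log2 difference between 4 °C and 30 °C (log2 fold change, SE for its standard error) was −0.82 (SE 0.45, edgeR adjusted p = 0.79). Without 30 °C replicate 3 it was −1.09, and without 30 °C replicate 1 it was −0.25 (adjusted p = 0.82 from edgeR). The level in that tumour was 2.20 times the next highest, and 132 of the 16133 genes (0.818%) had a ratio at least as large there. G6pdx shares 418 exonic bases with Ikbkg on the opposite strand, which had between 32.5 and 48.0 CPM and was not highest in that tumour. How the authors' counting treated reads on such bases is not given in the sources used here.

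Pgls encodes 6-phosphogluconolactonase, which opens the lactone made by G6pdx (chromosome 8, 71592176 to 71601092). Its level was 108, 113 and 101 CPM at 30 °C and 121 and 183 CPM at 4 °C. Both tumours at 4 °C lay above all 3 at 30 °C, 1 of them only slightly. The log2 fold change was 0.51 (SE 0.22, unadjusted p = 0.055 and adjusted p = 0.74 from edgeR). It was 0.16 without 4 °C replicate 2 and 0.77 without 4 °C replicate 1. Pgls shares 776 exonic bases on the same strand with Fam129c. The level of Fam129c was 15.4, 24.97 and 43.7 CPM at 30 °C and 52.7 and 43.8 CPM at 4 °C, without overlap by a narrow margin, and before scaling 30 °C replicate 3 (49.2 CPM) lay above 4 °C replicate 2 (45.1 CPM). A part of its reads in the counts of Pgls was not tested. The summed level of 9 T cell markers also lay higher at 4 °C without overlap, at 272, 319 and 444 CPM against 609 and 607 CPM, and its part in the level of Pgls was not tested.

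Pgd encodes 6-phosphogluconate dehydrogenase, the second NADPH-forming step (chromosome 4, 149149991 to 149166771). Its level was 309, 177 and 149 CPM at 30 °C and 143 and 175 CPM at 4 °C. As for G6pdx, 30 °C replicate 1 stood apart, here 1.75 times above the next tumour, which 260 genes (1.61%) matched or exceeded. The log2 fold change was −0.41 (SE 0.34, edgeR adjusted p = 0.86), and without that tumour it was −0.034. In the other 4 tumours the group means were 104 and 87.2 CPM for G6pdx and 163 and 159 CPM for Pgd at 30 °C and 4 °C.

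Tkt encodes transketolase, which moves carbon units between sugar phosphates of the non-oxidative branch (chromosome 14, 30548359 to 30574720). Its level was 583, 496 and 429 CPM at 30 °C and 389 and 455 CPM at 4 °C. Values of the groups overlapped, and the log2 fold change of −0.25 (SE 0.21, edgeR adjusted p = 0.86) was −0.13 without 30 °C replicate 1. Taldo1 encodes transaldolase, which works beside transketolase (chromosome 7, 141392199 to 141402968). Its level was 479, 424 and 365 CPM at 30 °C and 355 and 457 CPM at 4 °C, and its groups overlapped (log2 fold change −0.058, SE 0.21, edgeR adjusted p = 0.97). The sign of its estimate rested on single tumours, as it was 0.041 without 30 °C replicate 1 and 0.11 without 4 °C replicate 1.

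Rpia and Rpe encode the isomerase and the epimerase that interconvert the pentose phosphates, and they varied least. Rpia (chromosome 6, 70765720 to 70792232) had 101, 89.7 and 96.1 CPM at 30 °C and 81.3 and 94.1 CPM at 4 °C. Rpe (chromosome 1, 66700831 to 66719805) had 50.2, 55.2 and 44.5 CPM at 30 °C and 49.6 and 43.0 CPM at 4 °C. Their log2 fold changes were −0.12 (SE 0.17) and −0.11 (SE 0.18), with overlapping groups in both. Leaving out single tumours moved Rpia between −0.25 (without 4 °C replicate 2) and −0.020 (without 4 °C replicate 1), and Rpe between −0.22 (without 4 °C replicate 1) and −0.025 (without 4 °C replicate 2). Neither gene was set apart in 30 °C replicate 1. Rpe shares 558 exonic bases with Kansl1l on the opposite strand, whose level was at most 13.8 CPM.

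Tigar (chromosome 6, 127085116 to 127109557) was the scarcest member, with between 110 and 277 counts per library. Its level was 12.4, 9.03 and 12.1 CPM at 30 °C and 13.8 and 11.3 CPM at 4 °C, and the groups overlapped. The log2 fold change was 0.17 (SE 0.24, edgeR adjusted p = 0.92), and it was 0.014 without 4 °C replicate 1, 0.027 without 30 °C replicate 2 and 0.29 without 4 °C replicate 2.

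**Figure D2:**
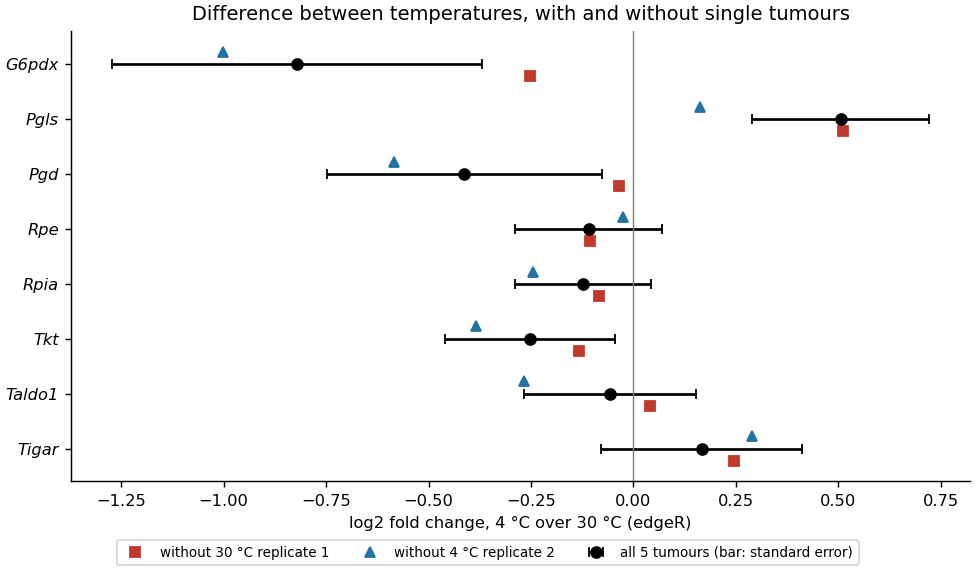
Log2 fold change at 4 °C over 30 °C for the 8 genes from edgeR (x axis), with all 5 tumours (black, bar: SE), without 30 °C replicate 1 (red squares) and without 4 °C replicate 2 (blue triangles). G6pdx moved from −0.82 to −0.25 and Pgd from −0.41 to −0.034 without the first, and Pgls from 0.51 to 0.16 without the second.

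Levels can be compared between genes only per length. Per kilobase of the principal transcript of each gene (GENCODE M21), Taldo1 was highest, with a mean and SD of 344 ± 46.1 CPM per kb over the 3 tumours at 30 °C and of 330 ± 58.7 CPM per kb over the 2 at 4 °C. Tkt (156 ± 24.0 and 131 ± 14.4) and Pgls (120 ± 6.89 and 171 ± 49.1) followed and changed places between the temperatures, so that their order was not resolved. Next came Pgd (95.5 ± 38.6 and 71.7 ± 10.4), then Rpia (52.2 ± 2.98 and 47.9 ± 4.93) and G6pdx (58.1 ± 33.0 and 32.9 ± 4.995), which also overlapped. Rpe (18.6 ± 1.98 and 17.2 ± 1.75) and Tigar (3.05 ± 0.502 and 3.43 ± 0.487) were lowest. With the length of all annotated exons in place of the principal transcript, Taldo1, Tkt, Rpe and Tigar held their ranks, while G6pdx rose from rank 6 to rank 3. The ranks between these therefore depend on which transcripts are counted as the gene.

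**Figure D3:**
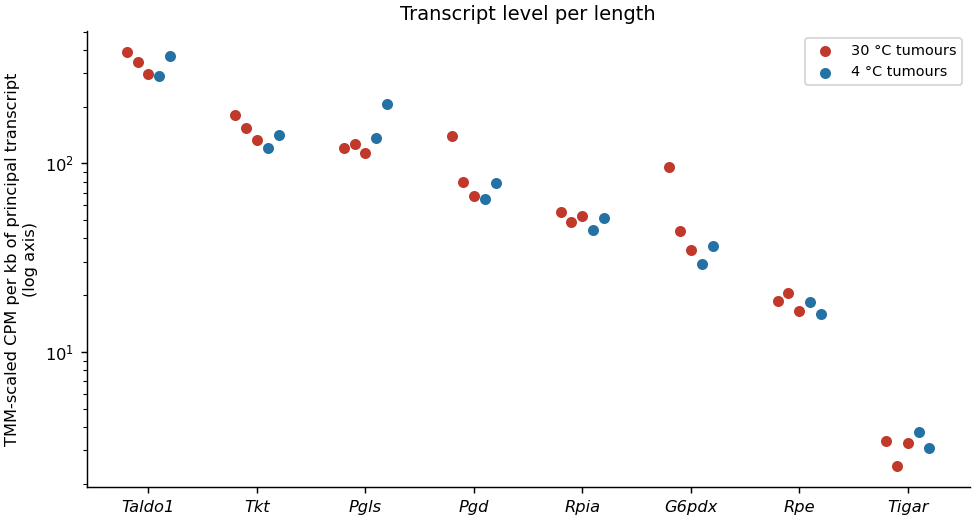
Level per kilobase of the principal transcript (TMM-scaled CPM per kb, log axis) for the 8 genes, 1 point per tumour, ordered by the mean of all 5 (red, 30 °C; blue, 4 °C). Mean levels ran from 338 for Taldo1 to 3.20 for Tigar.

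The balance of the branches was taken as the share of the 3 oxidative genes in the 7 enzymes, a ratio within each library that the scaling does not touch. Per kilobase, this share was 35.6%, 30.6% and 30.1% at 30 °C and 32.7% and 35.6% at 4 °C. The highest share at 30 °C was that of replicate 1, and the groups overlapped. As a share of raw counts it was 35.6%, 27.6% and 26.8% at 30 °C and 28.1% and 30.3% at 4 °C, so that the sign of the difference between group means turned from 2.07 to −0.82 percentage points. Summed over the 8 genes, the level was 1897, 1479 and 1289 CPM at 30 °C and 1231 and 1515 CPM at 4 °C, again with overlap. Without TMM scaling the sum in 30 °C replicate 2 was 1089 CPM, the lowest of the 5 (2039, 1453, 1329 and 1562 in the others).

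G6pdx, Pgd and Tkt shared their order of tumours, from 30 °C replicate 1 over 30 °C replicate 2, 4 °C replicate 2 and 30 °C replicate 3 to 4 °C replicate 1. This order, noticed after the values were seen, was found in 318 of the 16133 genes tested (1.97%). It also held for the summed level of 10 neutrophil markers, which was 12340, 8466 and 2958 CPM at 30 °C and 2478 and 3997 CPM at 4 °C. Of these 10 genes, 7 had this order, among them S100a8, S100a9, Elane and Mpo, while Ly6g, Camp and Csf3r were highest in 30 °C replicate 2. All 10 markers had at least 130 counts in every library. Of 6 subunits of the phagocyte NADPH oxidase, none had this order. The summed level of 12 erythroblast markers had another order, with 27540, 42680 and 14400 CPM at 30 °C and 33330 and 41170 CPM at 4 °C. The 9 macrophage markers summed to between 1998 and 3120 CPM. All 10 proliferation markers had a lower estimate at 4 °C, 6 of them at an unadjusted p under 0.05, where 4.17% of all genes were lower. All 9 T cell markers had a higher estimate, 7 of them at an unadjusted p under 0.05, where 2.58% of all genes were higher. The part of these cells in the levels of the 3 enzymes was not tested.

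**Figure D4:**
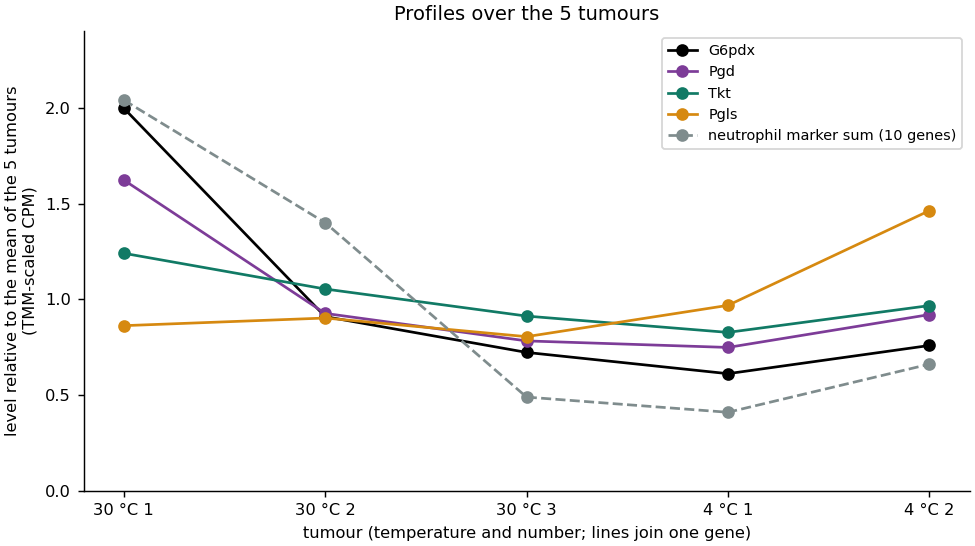
Levels of G6pdx, Pgd, Tkt, Pgls and the sum of 10 neutrophil markers in each tumour (x axis), each divided by its mean over the 5 tumours (y axis, TMM-scaled CPM). In 30 °C replicate 1 the neutrophil sum stood at 2.04, G6pdx at 2.00, Pgd at 1.62 and Tkt at 1.24 times their mean, and Pgls at 0.862.

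The genes most like G6pdx over the 5 libraries, by Pearson's r of log2 CPM, were Igsf6 (r = 0.999), Dgat1 (0.998), Ceacam10 (0.997), Il1r2 (0.997) and Pqlc3 (0.997). Chosen for their likeness to G6pdx, all 5 were also highest in 30 °C replicate 1, which is no separate result. Il1r2, a decoy receptor for interleukin-1, had 55.4, 7.39 and 5.33 CPM at 30 °C and 3.58 and 5.51 CPM at 4 °C. Dgat1, which completes triacylglycerol synthesis, had 39.1, 18.4 and 15.8 CPM at 30 °C and 12.8 and 16.1 CPM at 4 °C. The 3 genes most like Tkt were Htatip2, Gm9214 and Ppp2r5b, with r between 0.997 and 0.999. Gm9214 had only between 0.448 and 0.852 CPM, so that its r rests on few reads. Each r rests on only 5 libraries. Of the 16133 genes tested, 177 had an r over 0.95 with G6pdx and 248 with Tkt.

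Among the paralogs of the members, H6pd, the hexose-6-phosphate dehydrogenase of the endoplasmic reticulum, was detected at 77.7, 47.2 and 55.7 CPM at 30 °C and 61.1 and 48.5 CPM at 4 °C, with overlap (log2 fold change −0.13, SE 0.26). Its estimate turned to 0.092 without 30 °C replicate 1. Tktl1 had between 0 and 11 counts. G6pd2, an intronless copy of G6pdx, and Tktl2 had at most 1 count in a library.

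Genes that work with the pathway were read from lists, with a range of log2 fold changes on both sides of 0 in most. Of the 3 tested genes that pass other sugars into it, none passed an unadjusted p of 0.05, and Dera, a deoxyribose-phosphate aldolase, had a log2 fold change of −0.086 (SE 0.16). Of 9 tested genes that make or use phosphoribosyl pyrophosphate, the fate of ribose 5-phosphate in nucleotide synthesis, 5 had a higher and 4 a lower estimate at 4 °C. Their median was 0.018. Prpsap1, a subunit associated with the synthetase, had the smallest p, with 48.0, 53.8 and 43.4 CPM at 30 °C and 49.7 and 70.2 CPM at 4 °C. Its log2 fold change of 0.31 was 0.024 without 4 °C replicate 2 and 0.54 without 4 °C replicate 1.

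Of 11 other sources of NADPH or NADP, 8 had a lower estimate at 4 °C and 1 passed an unadjusted p of 0.05, with a list median of −0.32. Of the 16133 genes tested, 7951 had a lower estimate, and 4.17% were lower at an unadjusted p under 0.05. The gene of the list that passed was Nadk2, the mitochondrial NAD kinase, with 84.6, 105 and 67.3 CPM at 30 °C and 58.4 and 51.5 CPM at 4 °C. Both tumours at 4 °C lay below those at 30 °C, as in 11.0% of all genes (log2 fold change −0.64, SE 0.23, edgeR adjusted p = 0.71). In the list, Aldh1l2 had 492 counts in 30 °C replicate 2, the library rich in acinar transcripts, and at most 16 elsewhere.

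Of 12 redox enzymes that use this NADPH and their partners, none passed an unadjusted p of 0.05, and 8 had a lower estimate at 4 °C. Their median of −0.17 was 0.0080 without 30 °C replicate 1, 0.065 without 4 °C replicate 1 and −0.34 without 4 °C replicate 2. Gsr, glutathione reductase, had the smallest p, with 265, 163 and 118 CPM at 30 °C and 86.6 and 119 CPM at 4 °C. It had the same order of tumours as G6pdx, as did Glrx, and its log2 fold change of −0.83 (SE 0.36, edgeR adjusted p = 0.75) was −0.46 without 30 °C replicate 1. Of the 6 subunits of the phagocyte NADPH oxidase, 3 had a lower and 3 a higher estimate. Cybb, its catalytic subunit, had 389, 378 and 377 CPM at 30 °C and 321 and 219 CPM at 4 °C, without overlap (log2 fold change −0.50, SE 0.21, edgeR adjusted p = 0.74). Its estimate was −0.26 without 4 °C replicate 2 and −0.80 without 4 °C replicate 1. Rac2, a small GTPase of the complex, was higher without overlap, with 625, 478 and 604 CPM at 30 °C and 640.5 and 728 CPM at 4 °C. Of all genes tested, 12.2% were higher and 11.0% lower at 4 °C without overlap. Before scaling, the groups of Cybb overlapped, with 278 CPM in 30 °C replicate 2 and 347 CPM in 4 °C replicate 1.

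Of 9 genes of the Nrf2 list, 8 had a lower estimate at 4 °C, with a median of −0.22, and 2 passed an unadjusted p of 0.05, where 4.17% of all genes were lower by that measure. The median was −0.069 without 30 °C replicate 1, −0.030 without 4 °C replicate 1 (6 of 9 lower) and −0.57 without 4 °C replicate 2. In 30 °C replicate 1, 6 of the 9 were highest, against 18.9% of all genes. So were 5 of the 12 redox enzymes and partners and 4 of the 6 oxidase subunits. The genes that passed were the subunits of the enzyme that starts glutathione synthesis. Gclc had 83.7, 95.7 and 78.9 CPM at 30 °C and 52.0 and 55.1 CPM at 4 °C (log2 fold change −0.68, SE 0.17, edgeR adjusted p = 0.69). Gclm had 231, 217 and 129 CPM at 30 °C and 102 and 125 CPM at 4 °C (log2 fold change −0.76, SE 0.29, edgeR adjusted p = 0.71). In both the tumours at 4 °C lay below all at 30 °C, as in 11.0% of all genes. Nfe2l2 itself, the gene of Nrf2, had a log2 fold change of −0.10 with overlap.

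Tigar acts on the same metabolite as the Pfkfb enzymes. Of their list, 4 genes were tested and Pfkfb4 passed an unadjusted p of 0.05, where 4.17% of all genes were lower by that measure. Pfkfb4 had 32.4, 27.0 and 23.0 CPM at 30 °C and 17.7 and 18.0 CPM at 4 °C (log2 fold change −0.62, SE 0.21, edgeR adjusted p = 0.70). Tigar is also known as a target of p53, and of 9 genes of the p53 list none passed an unadjusted p of 0.05. Trp53, the gene of p53, had the smallest p, with 137, 121 and 136 CPM at 30 °C and 143 and 176 CPM at 4 °C without overlap (log2 fold change 0.28, SE 0.17, and 0.11 without 4 °C replicate 2). Sesn2, a stress-induced sestrin, was lower without overlap, with 47.3, 26.5 and 28.7 CPM at 30 °C and 24.4 and 25.3 CPM at 4 °C. Of all genes tested, 12.2% were higher and 11.0% lower at 4 °C without overlap. Before scaling, the groups of Sesn2 overlapped, with 19.5 CPM in 30 °C replicate 2 against 26.3 and 26.1 CPM at 4 °C. Over these lists no gene passed the adjusted threshold.

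**Figure D5:**
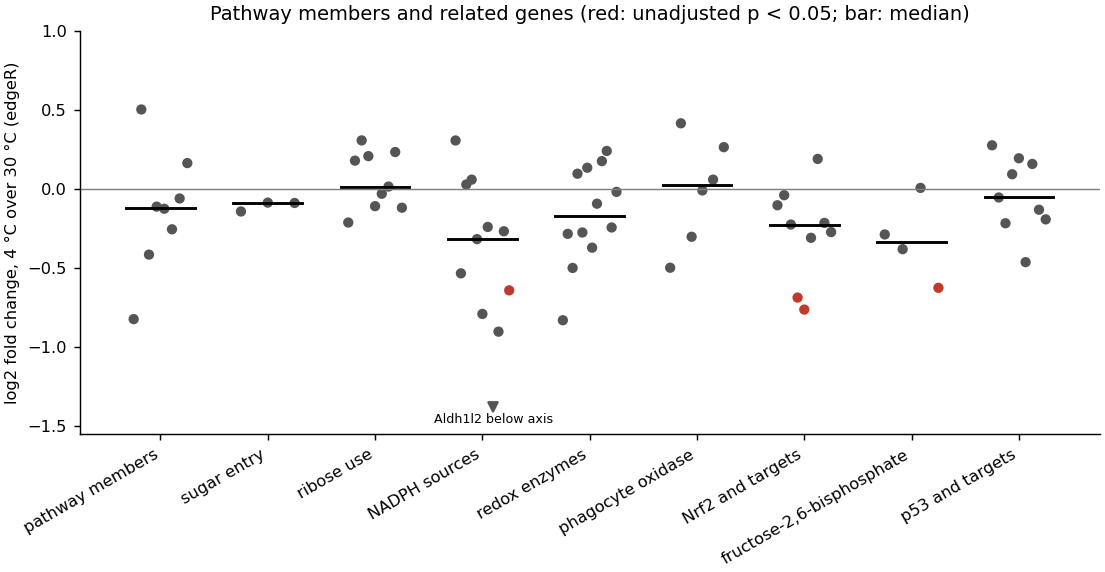
Log2 fold change at 4 °C over 30 °C (y axis, edgeR) of each tested gene of the pathway and of the related lists, 1 point per gene, with the median as a bar and genes at an unadjusted p under 0.05 in red. Red points are Nadk2, Gclc, Gclm and Pfkfb4, all below 0, and none is a pathway member (Aldh1l2, at −4.27, lies below the axis). Of all genes tested, 4.17% were lower and 2.58% higher at 4 °C by that measure.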

How the data were processed

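RNA of 5 tumours was analysed. The deposited values are raw read counts per gene symbol. According to the methods, aligned reads were summarised by the authors with featureCounts on the Gencode vM19 annotation, while the submitters' processing notes name fastp, HISAT, RSEM and the build GRCm38. Strand setting and treatment of shared reads are not given in the sources used here. Of the table's entries, 333 without a name were left out (at most 0.0170% of a library), and 97 symbols named several entries, which were kept apart (each member has a single entry). No column was unused.

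Low genes were removed by filterByExpr in R 4.3.3, and the remaining 16133 were scaled by TMM and compared with the robust quasi-likelihood test of edgeR 4.0.16, without covariates, on the groups that the authors compared with DESeq2. Adjustment followed Benjamini and Hochberg. DESeq2 1.42.0, other scalings and filters, the replicate number as a block and leaving out each tumour were alternatives. Log2 CPM had a prior count of 2. The study calls the tumours biological samples, the labels do not name the animals, and p-values measure the spread between these samples. The members and lists were chosen with earlier results of these data known. Named are all members, the list genes at an unadjusted p under 0.05 or else the one with the smallest p, detected paralogs, and the 5 genes most like G6pdx and the 3 most like Tkt (the rule took 5 for each, and some results are not reported here). Others (Fam129c, Ikbkg, Kansl1l, Aldh1l2, Glrx, Nfe2l2, Rac2, Sesn2 and single cell markers) were named after their values were seen. Coordinates and lengths are from GENCODE M21 on GRCm38, promoter windows from RefSeq.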

Additional observations from a re-analysis of the deposited data

How the results depend on the processing

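With 13 alternatives fitted across all genes, no member passed an adjusted p of 0.05 (edgeR or DESeq2), and the number lower at 4 °C was 6 in all except 2 of them, where it was 5. A member passed an unadjusted p of 0.05 in 5 of them (G6pdx with the replicate block, at −0.99, and without 30 °C replicate 3, Pgls with upper-quartile scaling, without a filter and without 4 °C replicate 1). Taldo1 turned to 0.041 without 30 °C replicate 1 and to 0.11 without 4 °C replicate 1, its highest, against −0.27 at the lowest without 4 °C replicate 2. For H6pd, the estimate was 0.092 without 30 °C replicate 1 and 0.0081 without 4 °C replicate 2, and −0.31 at the lowest. The count of genes called, 0, became 112 with the Wald test of DESeq2 and 1090 at an unadjusted p under 0.05 (417 higher and 673 lower), a split that upper-quartile scaling moved to 558 against 570, and was 0 under the other scalings and filters and without each tumour. With the replicate block it was 44, none of them a member. The numbers are not known to pair the tumours. Deviations from the group means correlated at −0.25 for number 1 and at 0.26 for number 2. With only 2 tumours at 4 °C, their deviations mirror each other, so that these values cannot decide it. What caused these shifts was not tested. The median over the members lay between −0.26 and −0.059 in all 13, and scalings moved the median of all genes by at most 0.051. The difference in the oxidative share, 2.07 percentage points per kilobase of principal transcript, was −1.46 with the length of all exons, a choice added after seeing the data, which weights the genes differently. The difference in the summed level of the members was −81.0 on CPM before TMM scaling. On that unscaled CPM it was 175 without 30 °C replicate 1 and 35.4 without 4 °C replicate 1. With TMM scaling and all 5 tumours the difference was −182, and single tumours were not left out on this scale. Fits that leave 1 tumour at 4 °C assume that it varies like the other group. Tigar, with 110 counts in its poorest library, is the member most limited by depth.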

Other observations

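Counts of the first and second steps of the oxidative branch were also set against each other within each tumour, a ratio that no scaling between libraries can alter. There were 2.35, 1.02 and 0.911 counts of G6pdx per count of Pgls at 30 °C and 0.641 and 0.526 at 4 °C. Both tumours at 4 °C lay below all 3 at 30 °C. For Pgd per Pgls, the ratios were 2.86, 1.56 and 1.48 at 30 °C and 1.18 and 0.956 at 4 °C, again without overlap. The ratio of Taldo1 to Tkt was 0.821, 0.855 and 0.851 at 30 °C and 0.912 and 1.01 at 4 °C, also without overlap. For G6pdx per Tkt the ratios were 0.436, 0.234 and 0.214 at 30 °C and 0.1999 and 0.212 at 4 °C, where the nearest tumours of the groups almost met. These 4 ratios were chosen after the values were seen, and ratios that do not overlap are common: over all pairs of tested genes with a count in every library 23.3% did not overlap, and 11 of the 28 pairs of members, which share genes and so are not independent. Each had p = 0.2 by exact permutation (two-sided, also 0.2 after adjustment over the 4), the lowest value within reach of 3 against 2 tumours, and 0.05 is out of reach.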
